A study of Homo sapiens with 2 samples.

Results

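The genes described here are those whose listed symbol starts with UBE, UBA, USP, RNF, TRIM, FBXO, FBXL, FBXW, CUL, HERC, MARCH or PSM, with RNF43 left out. They take in ubiquitin-activating and ubiquitin-conjugating enzymes, ubiquitin ligases, deubiquitinases and proteasome genes. The rule found 93 of the 2795 genes in the table, measured by 1651 probe sets, and no listed symbol started with CUL. It chose by name and used no measured value, but it was set with earlier results of these data known. The cells were HepG2, a human hepatoma line, grown on collagen. The knockdown group was HepG2 transfected with an oligonucleotide of locked nucleic acid (LNA) that targets the noncoding transcript TUC338, and the control group was HepG2 transfected with a control LNA. Each group had 1 whole-transcript array, so every difference compares 2 arrays, and no p-value or replicate error can be given. The study asked how loss of TUC338 affects gene expression, and its design text reports that knockdown had been checked by experiment.

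Ubiquitin is a small protein joined to other proteins through a relay of an activating enzyme, a conjugating enzyme and a ligase that picks the target. Chains of it can send a protein to the proteasome, whose 20S core cuts proteins and whose 19S particle binds, unfolds and feeds them, while deubiquitinases take ubiquitin off again. In hepatocytes this system sets the turnover of metabolic enzymes, receptors and secretory proteins that fail to fold.

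Values are log2 intensities, each averaged over the probe sets of a gene, and a probe set covers roughly an exon. The SD beside a difference is taken over probe sets of the same 2 arrays and is not a replicate error. The median gene of the table was 0.28 higher on the knockdown array (log2), or 1.22-fold, so differences are knockdown minus control relative to that gene unless called deposited. A gene with a relative difference between -0.28 and 0 was therefore higher on the knockdown array in deposited values. No probe set was annotated to TUC338 itself. Of 17 hepatocyte markers, 6 were in the table (ALB, APOB, APOH, TF, FGG and GPC3), at percentiles of 91.5 to 99.9 of gene level. Of 10 markers of other cells only COL1A1 was, at percentile 20.6. The markers absent from the table have no value here, so their level is not known.

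Of the 93 genes, 2 were at least 1.5-fold higher on the knockdown array, RNF144B and FBXO8, which is 2.15%, beside 2.25% of all 2795 genes. At least 1.5-fold lower were 4, RNF213, UBAP2L, UBE2O and HERC2P3, which is 4.3%, beside 3.97% of all genes. These shares were near the background. At 2-fold, RNF144B and FBXO8 were still counted, beside 0.286% of all genes higher, and no member was lower, beside 0.358% of all genes. The median over the 93 genes was 0.06 and that over all genes 0, with SDs over genes of 0.30 and 0.31. A total of 59 of 93 genes (63.4%) lay above the median gene, where 50% of all genes did. In deposited values 82 of the 93 genes (88.2%) were higher on the knockdown array, against 82.9% of all genes, 9 of 93 were at least 1.5-fold higher, where 13% of all genes were, and none was 1.5-fold lower, where 0.966% were.

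**Figure D1:**
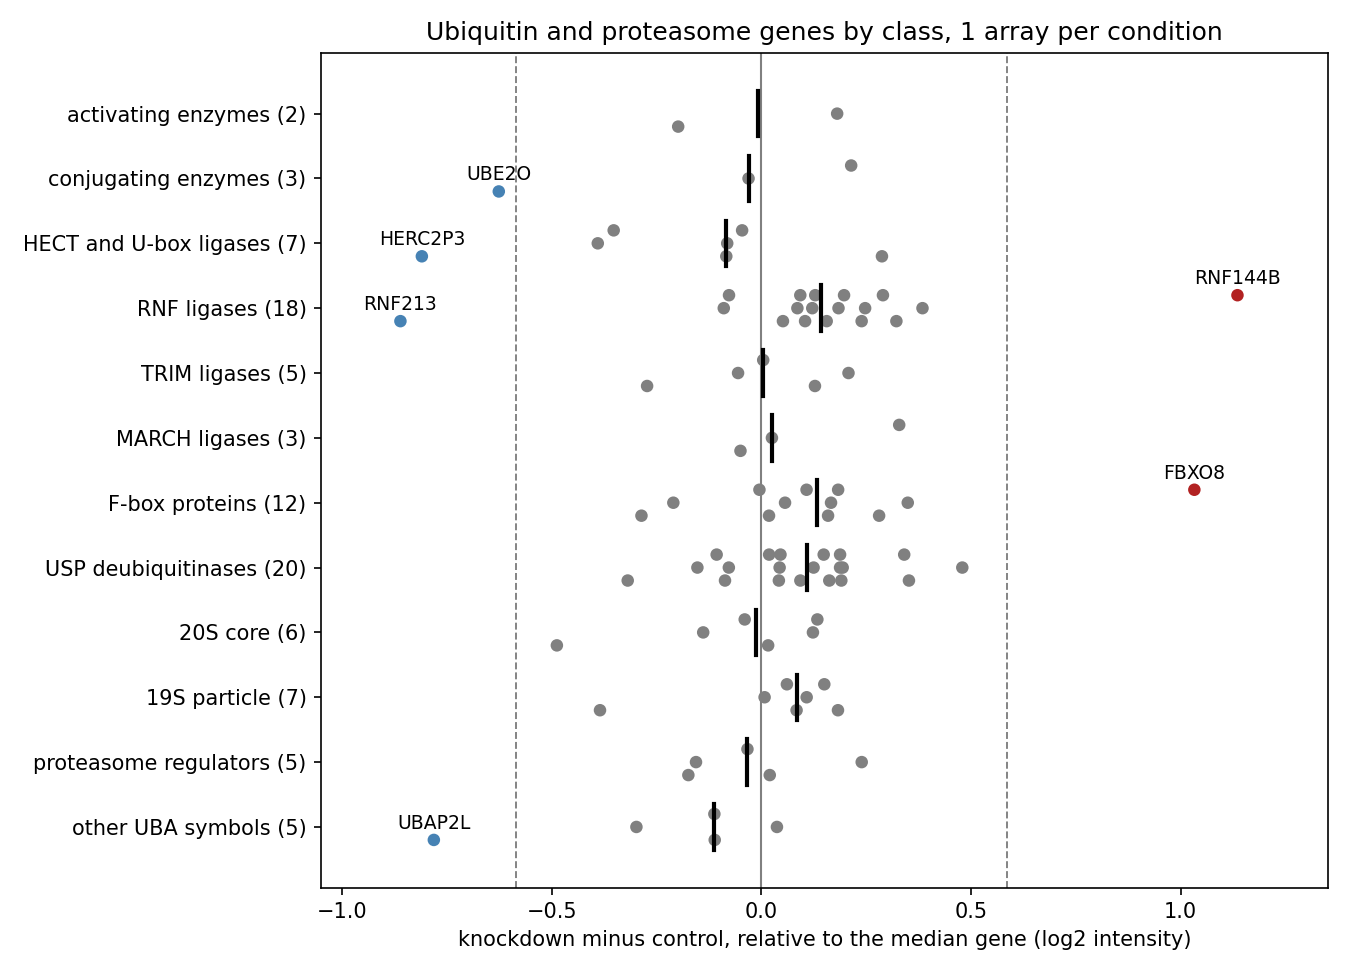
Difference of each of the 93 genes (points), knockdown minus control relative to the median gene in log2 intensity, by class with the number of genes in brackets; black bars are class medians and dashed lines mark 1.5-fold. RNF144B and FBXO8 lie to the right of the dashed line at 1.14 and 1.03, and RNF213, UBAP2L, UBE2O and HERC2P3 to the left, while every point of the USP, MARCH, TRIM and 3 proteasome classes lies between the lines.

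RNF144B is a RING-in-between-RING ligase that has been described as a p53-induced gene whose product acts on p21 and BAX. Its level was 9.71 after knockdown, against 8.29 with the control LNA. All of its 16 probe sets were above the median gene, from 0.67 to 1.77, with a mean of 1.14 ± 0.29, or 2.20-fold (2.67-fold in deposited values). Its brightest probe set read 10.64 after knockdown and 9.53 with control LNA, a smaller gap than the gene's mean. Among the 2744 genes with at least 4 probe sets, RNF144B ranked 5 from the top.

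FBXO8, an F-box protein with a Sec7 domain that has been linked to ubiquitination of the small GTPase ARF6, had a level of 8.57 after knockdown, against 7.26 with the control LNA. All of its 10 probe sets were above the median gene, from 0.52 to 1.37, with a mean of 1.03 ± 0.22, or 2.05-fold (2.49-fold in deposited values), and it ranked 7 from the top. FBXO8 was measured at low intensity, and none of its probe sets reached, as a mean over both arrays, the median of such means over all probe sets. Its brightest probe set read 9.24 after knockdown and 8.44 with control LNA, which is the smallest difference of the 10, 0.52.

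RNF213, a giant ligase with AAA+ ATPase modules that is known as a susceptibility gene of moyamoya disease and acts on lipid droplets and intracellular pathogens, had a level of 8.70 after knockdown, against 9.28 with the control LNA. It lay under the median gene at 47 of 48 probe sets, from -1.42 to 0.16, with a mean of -0.86 ± 0.30, or 1.82-fold lower (1.49-fold in deposited values). The table also lists 17 probe sets under KIAA1618, an older name of RNF213 that the naming rule does not catch. Their mean level was 8.74 after knockdown and 9.19 with control LNA, and all 17 lay below the median gene, with a mean of -0.74 ± 0.22. These probe sets come from the same 2 arrays, so they add exons and not replicates.

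UBAP2L carries a ubiquitin-associated domain and is an RNA-binding protein needed for stress granule assembly, not a ligase. Its level was 9.41 after knockdown, against 9.91 with the control LNA. All of its 26 probe sets lay below the median gene, from -1.28 to -0.17, with a mean of -0.78 ± 0.24, or 1.72-fold lower (1.41-fold in deposited values). Its paralog UBAP2 had levels of 9.62 after knockdown and 9.63 with control LNA and a mean of -0.30 ± 0.25 with 30 of its 35 probe sets under the median gene.

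UBE2O joins conjugating and ligase activity in a large protein that tags unassembled ribosomal proteins and globins. Its level was 8.06 after knockdown, against 8.41 with the control LNA, and all of its 14 probe sets lay below the median gene, from -1.09 to -0.14. The mean was -0.63 ± 0.29, or 1.54-fold lower, and 1.27-fold lower in deposited values. Only 1 of the 14 was at or above the median level of all probe sets, and with it alone the value was -0.92. The remaining gene past 1.5-fold, HERC2P3, is listed as a pseudogene of HERC2 and had 1 probe set, which read 7.48 after knockdown and 8.01 with control LNA. Whether that probe set also takes up signal from HERC2 was not tested.

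**Figure D2:**
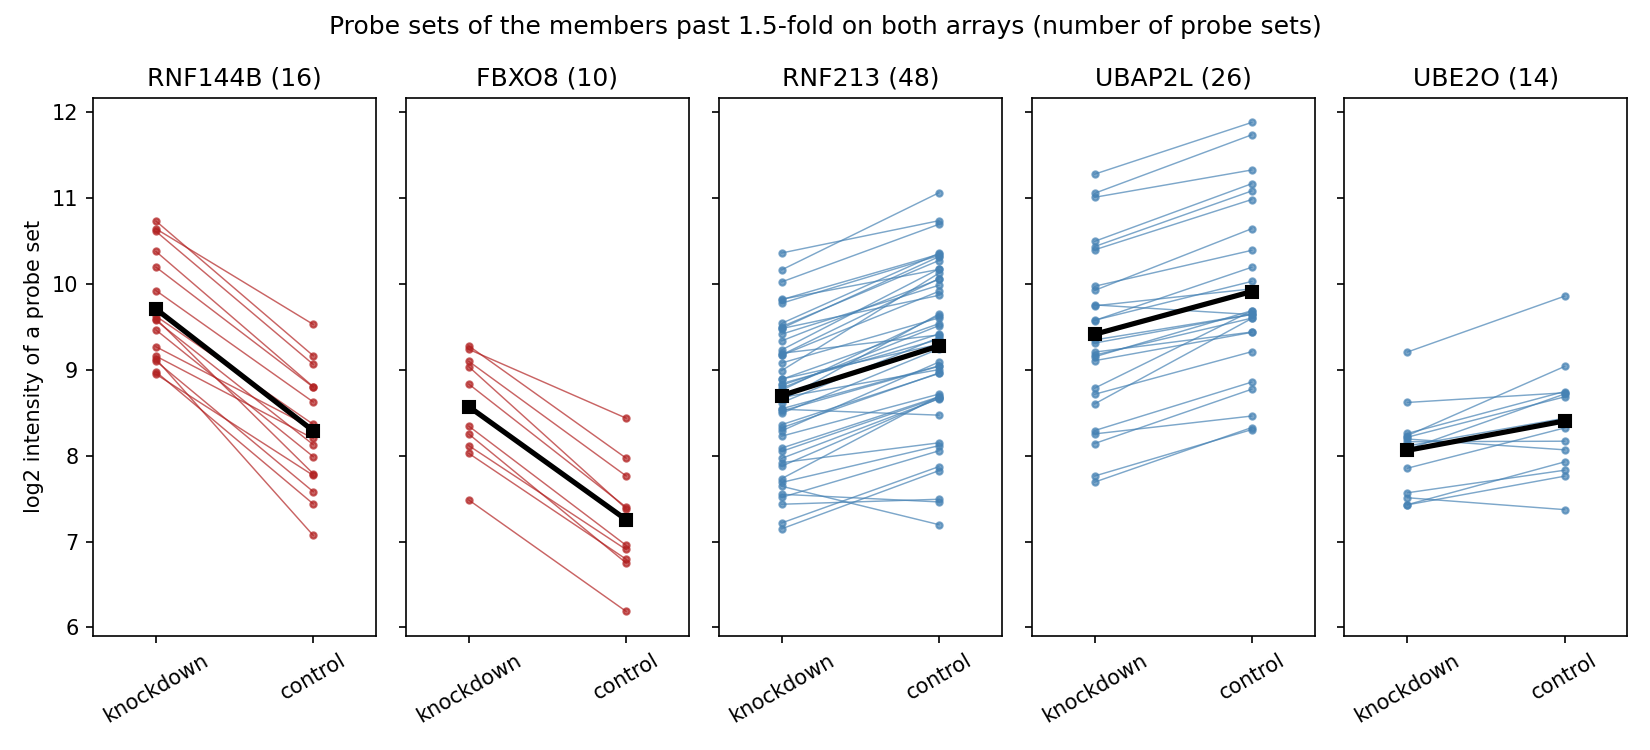
Log2 intensity of every probe set (thin lines and dots) on the knockdown array, left, and the control array, right, for the 5 genes past 1.5-fold with more than 1 probe set; black squares are gene means. All lines of RNF144B (16) and FBXO8 (10) run down towards the control, and 45 of 48 lines of RNF213, 25 of 26 of UBAP2L and 12 of 14 of UBE2O run up.

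The 250 bases before the RefSeq start of these 5 genes are shown because these are the genes past 1.5-fold with more than 1 probe set, so that the sequence ahead of higher and lower genes can be set side by side. They are RefSeq sequences of GRCh38.p14, each written along its gene's strand. They span chr6:18387100-18387349 (plus strand) for RNF144B, chr4:174283668-174283917 (minus) for FBXO8, chr17:80260602-80260851 (plus) for RNF213, chr1:154220599-154220848 (plus) for UBAP2L and chr17:76453153-76453402 (minus) for UBE2O. Capitals mark GGGCGG, the GC box of SP-family factors, CCAAT, and CACGTG, the E-box, each searched on both strands, and no base fell in more than 1 of these motifs.
RNF144B: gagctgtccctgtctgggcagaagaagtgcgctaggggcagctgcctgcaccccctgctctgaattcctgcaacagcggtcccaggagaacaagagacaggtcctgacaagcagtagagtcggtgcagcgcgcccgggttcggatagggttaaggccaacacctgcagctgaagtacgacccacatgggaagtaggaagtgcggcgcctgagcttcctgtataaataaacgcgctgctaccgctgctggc
FBXO8: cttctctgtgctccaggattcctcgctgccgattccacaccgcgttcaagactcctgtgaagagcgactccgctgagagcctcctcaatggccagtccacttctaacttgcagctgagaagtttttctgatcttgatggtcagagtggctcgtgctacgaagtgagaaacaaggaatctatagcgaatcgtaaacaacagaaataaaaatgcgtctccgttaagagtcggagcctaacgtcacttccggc
RNF213: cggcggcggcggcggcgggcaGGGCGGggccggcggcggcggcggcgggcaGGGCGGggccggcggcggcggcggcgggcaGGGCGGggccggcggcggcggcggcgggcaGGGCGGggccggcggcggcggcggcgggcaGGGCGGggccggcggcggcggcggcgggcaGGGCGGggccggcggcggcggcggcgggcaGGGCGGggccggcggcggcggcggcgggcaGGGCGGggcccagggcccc
UBAP2L: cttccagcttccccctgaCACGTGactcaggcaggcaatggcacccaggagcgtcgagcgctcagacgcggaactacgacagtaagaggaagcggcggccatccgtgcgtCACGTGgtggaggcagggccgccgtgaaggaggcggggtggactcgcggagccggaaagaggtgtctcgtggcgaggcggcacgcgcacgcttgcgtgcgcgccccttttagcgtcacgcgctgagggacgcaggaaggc
UBE2O: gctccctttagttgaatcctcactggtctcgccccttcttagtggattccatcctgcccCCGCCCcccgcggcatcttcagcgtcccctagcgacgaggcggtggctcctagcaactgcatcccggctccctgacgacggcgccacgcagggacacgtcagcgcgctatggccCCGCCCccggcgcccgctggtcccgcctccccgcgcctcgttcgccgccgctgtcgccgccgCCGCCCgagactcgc

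None of the 3 motifs occurred ahead of RNF144B or FBXO8, the higher genes. CCAAT was also absent ahead of the lower genes RNF213, UBAP2L and UBE2O. Whether any motif goes with the direction of a gene was not tested. The RNF213 window was a tandem GC-rich repeat with 96.4% G and C and held GGGCGG 8 times. UBE2O held it 3 times, all on the opposite strand and so printed as CCGCCC, while UBAP2L held CACGTG 2 times and no GGGCGG. The G and C share was 59.6% for RNF144B, 50% for FBXO8, 68% for UBAP2L and 72% for UBE2O. Of the 82 members matched to a promoter, 67.1% held GGGCGG, against 69.1% of the 2372 genes of the table with a promoter and 42.3% of all 27305 RefSeq promoters. CCAAT was found in 32.9% of members, 34.1% of the table's genes and 33.0% of all promoters, and CACGTG in 17.1% of members, 10.03% of the table's genes and 6.49% of all promoters. These are matches of letters and not measured binding.

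RNF genes carry a RING domain, which brings the conjugating enzyme to the target. Among 18 RNF genes the median was 0.14, and 15 lay above the median gene, where 50% of all genes did. In deposited values 17 of 18 (94.4%) were higher on the knockdown array, where 82.9% of all genes were, RNF213 being the exception. RNF219, now named OBI1, a ligase that acts on the origin recognition complex, had levels of 8.48 after knockdown and 7.81 with control LNA, and all 10 of its probe sets lay above the median gene (0.38 ± 0.16). RNF20, which ubiquitinates histone H2B, had levels of 8.65 and 8.04 in knockdown and control and a mean of 0.32 ± 0.28 with 18 of 21 probe sets above. RNF138, a ligase of DNA end resection, had 8.28 after knockdown and 7.71 with control LNA, a mean of 0.29 ± 0.25, and 10 of 11 probe sets above. By the brightest probe set RNF219, RNF20 and RNF138 lay at 0.66, 0.38 and 0.11. Besides RNF213, RNF10 at -0.09 ± 0.31 and RNF34 at -0.08 ± 0.22 lay below the median gene, and RNF7, a RING partner of cullins, lay at 0.05 over 3 probe sets. The other 10 RNF genes lay between 0.09 and 0.25, among them RNF168, which ubiquitinates histone H2A at DNA breaks, at 0.16 ± 0.25, and RNF185, a ligase of endoplasmic reticulum quality control, at 0.24 ± 0.33.

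TRIM proteins are RING ligases of which several act on chromatin. The 5 TRIM genes had a median of 0.00 and ran from -0.27 to 0.21. TRIM24, a co-regulator of nuclear receptors and of p53, had levels of 11.29 after knockdown and 11.28 with control LNA and lay under the median gene at 16 of 19 probe sets (-0.27 ± 0.24). Its relatives of the TIF1 family lay higher, TRIM28 at 0.00 ± 0.12 over 15 probe sets and TRIM33, a ligase of SMAD4, at 0.13 ± 0.25 over 21. TRIM25, which activates the RNA sensor RIG-I, lay at -0.06 ± 0.27. TRIM23 had 8.50 after knockdown and 8.01 with control LNA, with a mean of 0.21 ± 0.27, which turned to -0.10 with the brightest probe set and -0.03 with the brighter probe sets only.

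The membrane-bound MARCH ligases, renamed MARCHF, had means of -0.05 ± 0.24 for the mitochondrial MARCH5, 0.03 ± 0.21 for MARCH6, which degrades proteins at the endoplasmic reticulum, and 0.33 ± 0.50 for MARCH8, which removes receptors from the cell surface. MARCH8 had levels of 9.24 after knockdown and 8.63 with control LNA. Its 10 probe sets ran from -0.90 to 1.03, and 9 of them lay above the median gene. MARCH8 lay at 0.37 by the brightest probe set and 0.14 by the brighter probe sets only.

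HECT ligases pass ubiquitin through a cysteine of their own, and U-box ligases bind the conjugating enzyme much as RING ligases do. Of 7 genes whose symbols start with HERC, UBE3 or UBE4, 6 lay below the median gene, where 50% of all genes lay above it. Their median was -0.08. In deposited values 4 of the 7 were higher on the knockdown array, where 82.9% of all genes were, and the median was 0.20. The 7 include HERC2P3, listed as a pseudogene of HERC2, with 1 probe set. With at least 4 probe sets required, which drops HERC2P3, the median of the 6 genes left was also -0.08. HERC2, a giant HECT ligase of DNA damage signalling, had levels of 8.02 after knockdown and 8.12 with control LNA and lay under the median gene at 49 of 52 probe sets (-0.39 ± 0.28). HERC1 had 7.79 after knockdown and 7.86 with control LNA and lay under it at 74 of 79 (-0.35 ± 0.23). Only 2 of the 79 probe sets of HERC1 and 6 of the 52 of HERC2 were at or above the median level of all probe sets. With these alone the values were -0.38 and -0.51. HERC4 lay at -0.05 ± 0.26. UBE3A, the ligase lost in Angelman syndrome, was the exception, with levels of 9.39 after knockdown and 8.82 with control LNA and 21 of 24 probe sets above the median gene (0.29 ± 0.23). The proteasome-bound UBE3C lay at -0.08 ± 0.28 and the chain-extending UBE4B at -0.08 ± 0.31.

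HERC1, HERC2 and RNF213 are among the genes with the most probe sets, and the number of probe sets moved with the difference at that end of the table. In a division chosen after the values were seen, 6 members had over 40 probe sets, RNF213, HERC1, HERC2, PSME4, USP34 and USP9X, and 5 of the 6 lay below the median gene, with a median of -0.25. Of all 114 genes with over 40 probe sets, 82 lay below the median gene, with a median of -0.18. The part of probe-set number in these results was not tested. Across the 93 genes the difference had a Pearson r of -0.07 and a Spearman rho of -0.17 with the log2 number of probe sets, and of -0.20 and -0.30 with the mean level. Across all 2795 genes the values were 0.04 and 0.04 for number and 0.04 and 0.05 for level. All points share the same 2 arrays.

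**Figure D3:**
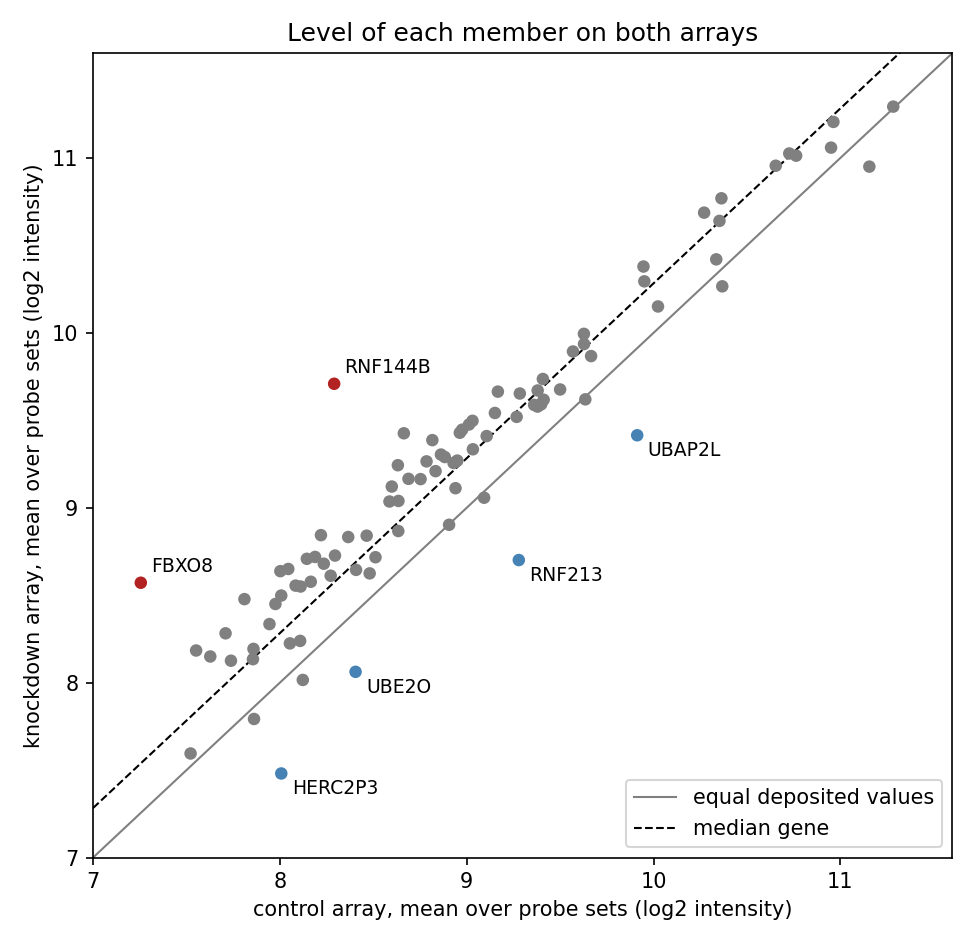
Mean log2 intensity over probe sets on the knockdown array (vertical) against the control array (horizontal) for the 93 genes. The solid line marks equal deposited values and the dashed line the median gene, 0.28 higher; most points follow the dashed line, RNF144B and FBXO8 lie well above it, and the 4 genes past 1.5-fold lower lie below the solid line.

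F-box proteins hold the substrate for cullin-based ligases. Of 12 such genes 9 (75%) lay above the median gene, where 50% of all genes did, with a median of 0.13. Apart from FBXO8 none was past 1.5-fold, beside 2.25% of all genes higher and 3.97% lower. FBXW7, which directs MYC, cyclin E and NOTCH to degradation, had levels of 8.18 after knockdown and 7.55 with control LNA and was above the median gene at 16 of 18 probe sets (0.35 ± 0.34), with 0.08 by the brightest probe set and 0.15 by the brighter probe sets only. FBXO18, now FBH1, a helicase that limits recombination, was the lowest, with 8.90 after knockdown and 8.91 with control LNA and 17 of 19 probe sets under the median gene (-0.29 ± 0.22). The listed symbols FBXL10 and FBXL11 are older names of the histone demethylases KDM2B and KDM2A, which had means of -0.00 ± 0.34 and 0.16 ± 0.25. The iron-sensing FBXL5 lay at 0.17 ± 0.30, FBXO31 at 0.18 ± 0.25, FBXW5 at 0.02 ± 0.27 and FBXW8 at -0.21 ± 0.30. FBXO34 lay at 0.28 ± 0.25, FBXW4 at 0.11 ± 0.46 and FBXO21 at 0.06 ± 0.29.

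At the start of the relay, UBA1, the main ubiquitin-activating enzyme, had levels of 10.42 after knockdown and 10.34 with control LNA and a mean of -0.20 ± 0.19, with 19 of 22 probe sets under the median gene. UBA3, the catalytic subunit of the NEDD8-activating enzyme, had 9.48 after knockdown and 9.01 with control LNA and a mean of 0.18 ± 0.31. Among conjugating enzymes, UBE2J1, which works at the endoplasmic reticulum, lay at 0.21 ± 0.22, its probe sets above the median gene but for 1 of 11, and UBE2N, the maker of lysine-63 chains, lay at -0.03 ± 0.30. Of the other genes with a UBA symbol, UBAP1 and UBAC1 both lay at -0.11, with SDs of 0.29 and 0.34, and the phosphatase UBASH3B at 0.04 ± 0.26.

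USP genes encode the largest family of deubiquitinases. Of 20 listed USP genes, 15 (75%) lay above the median gene, where 50% of all genes did. Their median was 0.11 and their range -0.32 to 0.48. None was past 1.5-fold, beside 2.25% of all genes higher and 3.97% lower, which is near that background for so few genes. USP39, a splicing factor with an inactive protease fold, had levels of 9.43 after knockdown and 8.66 with control LNA and was above the median gene at 12 of 13 probe sets (0.48 ± 0.31). USP8, which works on endosomal receptor sorting, had 8.64 after knockdown and 8.00 with control LNA, with 17 of 18 probe sets above (0.35 ± 0.22). USP16, which removes ubiquitin from histone H2A, had 8.84 after knockdown and 8.22 with control LNA, with 17 of 19 above (0.34 ± 0.30). By the brightest probe set USP39, USP8 and USP16 lay at 0.24, 0.28 and 0.15. By the brighter probe sets only they lay at 0.32, 0.34 and 0.37.

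USP24 was the lowest of the family, with 9.06 after knockdown and 9.09 with control LNA and 13 of 16 probe sets under the median gene (-0.32 ± 0.32). It was also the only USP gene below 0 in deposited values, where 82.9% of all genes lay above 0. USP7, which acts on MDM2 and p53, lay at 0.02 ± 0.20 over 33 probe sets, USP9X at 0.05 ± 0.21 over 48, and USP34, with the most probe sets of the list, at -0.11 ± 0.27 over 82. The proteasome-bound USP14 lay at 0.12 ± 0.26 and USP5, which recycles free ubiquitin chains, at 0.04 ± 0.22. USP6NL is not a deubiquitinase but a GTPase-activating protein that carries the symbol, and it lay at 0.19 ± 0.29. Without it 14 of 19 genes lay above the median gene. Of those not described elsewhere, 9 USP genes lay between -0.15 and 0.19, among them USP28, a stabiliser of MYC, at -0.15 ± 0.25, USP25 at 0.16 ± 0.28 and the mitochondrial USP30, which opposes mitophagy, at 0.19 ± 0.28.

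The 18 PSM genes had a median of 0.02 and an SD over genes of 0.19, where that of all genes was 0.31 and those of the USP, TRIM and MARCH genes 0.19, 0.18 and 0.20. None was past 1.5-fold, beside the same 2.25% and 3.97% of all genes. By the brightest probe set of each gene, PSMD10 at 0.61 and PSMG2 at 0.65 were past 1.5-fold higher, where 5.19% of all genes were. In that setting no PSM gene was past 1.5-fold lower, where 7.01% of all genes were. In deposited values 16 of 18 (88.9%) were higher on the knockdown array, near the 82.9% of all genes. In the 20S core, the 6 genes had a median of -0.01. PSMB5, the chymotrypsin-like catalytic subunit, had levels of 10.77 after knockdown and 10.36 with control LNA (0.12 ± 0.12 over 5 probe sets), and PSMB1, PSMB3 and PSMB4 lay at 0.13 ± 0.27, -0.04 ± 0.13 and 0.02 ± 0.24. PSMA2 had 8.62 after knockdown and 8.48 with control LNA and probe sets from -0.66 to 0.65 (-0.14 ± 0.43). PSMA6 was the lowest gene of the core at -0.49, from 2 probe sets at -0.71 and -0.26.

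In the 19S particle, 6 of 7 genes lay above the median gene, where 50% of all genes did. Their median was 0.08, which turned to -0.10 with the brightest probe set of each gene. The ATPase subunits lay close together, PSMC1 at 0.15 ± 0.19, PSMC3 at 0.11 ± 0.13, PSMC4 at 0.06 ± 0.18 and PSMC5 at 0.08 ± 0.31. PSMD3, a scaffold subunit of the lid, stood apart from them, with 10.27 after knockdown and 10.37 with control LNA and all 13 probe sets below the median gene (-0.38 ± 0.17). PSMD6 lay at 0.01 ± 0.33, and PSMD10, an assembly chaperone also called gankyrin, at 0.18 ± 0.32 over 4 probe sets. The PSMC1 probe sets are numbered 2628585 to 2628593. These numbers lie closer to PSMD6 on chromosome 3 (2679865) than to PSMB5 on chromosome 14 (3557052). PSMC1 is itself listed on chromosome 14, and where its probe sets lie was not tested.

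Among the regulators of the proteasome, the activator subunits lay below the median gene, PSME2 at -0.17 ± 0.16, with 11.06 after knockdown and 10.95 with control LNA, and PSME4 at -0.16 ± 0.31 over 51 probe sets. The inhibitor PSMF1 lay at -0.03 ± 0.09. The chaperones PSMG1 and PSMG2, which pair to assemble the core ring, lay at 0.02 ± 0.48 and 0.24 ± 0.23, PSMG2 with 9.12 after knockdown and 8.60 with control LNA.

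**Figure D4:**
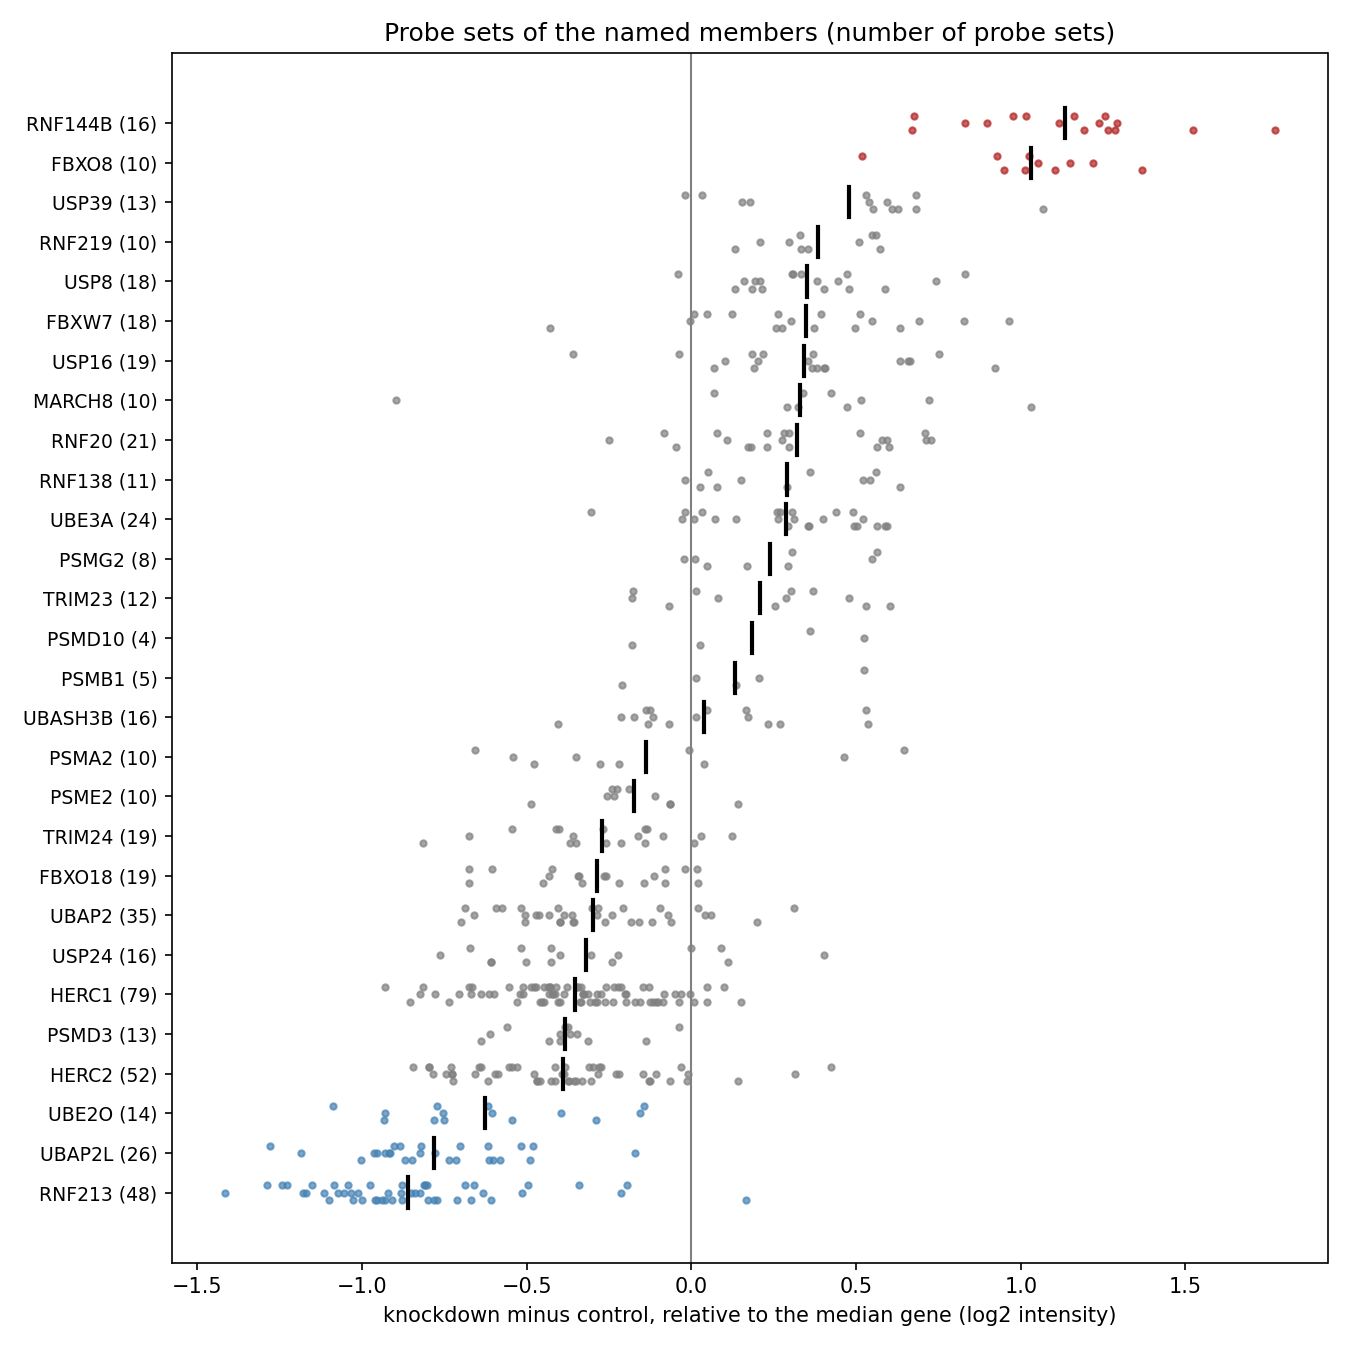
Difference of each probe set (points), relative to the median gene in log2 intensity, for the named members with at least 4 probe sets, ordered by gene mean (black bars), with the number of probe sets in brackets. Points of RNF144B, FBXO8 and RNF219 all lie above 0 and those of PSMD3, UBE2O and UBAP2L all below it, while RNF213 has 1 point above 0.

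Agreement among exons of a gene was judged from the 90 members with at least 4 probe sets. Every probe set lay above the median gene for 3 of them, FBXO8, RNF144B and RNF219 (3.33%, beside 7.33% of the 2744 genes with at least 4 probe sets), and below it for 3, PSMD3, UBAP2L and UBE2O (3.33%, beside 9.04%). The 2744 genes were not matched to the members by number of probe sets. An SD over probe sets above 0.4 was found for 6 of the 90 (6.67%, beside 5.98%), FBXW4, MARCH8, PSMA2, PSMG1, RNF220 and USP11. In USP11, a deubiquitinase of the DNA damage response, 1 probe set read 8.76 after knockdown and 10.32 with control LNA, -1.84 relative to the median gene, while the next lowest of its 20 probe sets lay at -0.37 and the mean at -0.09 ± 0.45. In RNF220 the probe sets ran from -0.83 to 0.70, with a mean of 0.09 ± 0.46. These members were picked for their spread after it was seen.

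Other genes of the ubiquitin system were taken from a list of 185 symbols, of which 46 were in the table. None was past 1.5-fold in either direction, beside 2.25% and 3.97% of all genes. Above the median gene were 26 of 46 (56.5%), where 50% of all genes were, with a median of 0.05. In deposited values 7 of the 46 were at least 1.5-fold higher, where 13% of all genes were, and 0 were lower, where 0.966% were. ITCH, a HECT ligase of JUNB and NOTCH, was the highest, with levels of 9.97 after knockdown and 9.14 with control LNA and 31 of 32 probe sets above the median gene (0.55 ± 0.27). COPS7A, a subunit of the signalosome that removes NEDD8 from cullins, lay at 0.47 ± 0.28 and the ligase DZIP3 at 0.46 ± 0.24. At the low end, RAD23B, which carries ubiquitinated proteins to the proteasome and senses DNA damage with XPC, had 9.04 after knockdown and 9.32 with control LNA and lay below the median gene at all 14 probe sets (-0.56 ± 0.29). The NOTCH regulator DTX2 lay at -0.51 ± 0.07 over 4 probe sets and FZR1, the activator of the anaphase-promoting complex in G1, at -0.44 ± 0.18 over 10.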

How the data were processed

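The authors deposited natural log intensities for 45200 probe sets on 2 arrays, 1 per group, and groups follow the transfection label. No label or header names the normalization, software or build (not given in the sources used here), and the scale was settled from the deposited values, whose exponentials under 2000 piled up on multiples of 0.5 plus a fixed residue (1154 and 1167 values in the fullest of 500 bins on the knockdown and control arrays, beside means of 82.7 and 84.2). Values were converted to log2 with Python 3.11.15 and pandas 2.3.3, and only the 42575 probe sets with 1 gene symbol were used. Of the member symbols, 86 are current in RefSeq and 7 are older. A gene's value was the mean over its probe sets of knockdown minus control, less the median over 2795 genes, with no filter on level. With 1 array per group no test was made. The functions were tested on simulated data. The members and lists were chosen with earlier results of these data known. Named were members past 1.5-fold, the 10 highest and 10 lowest with at least 4 probe sets, the extremes of classes with 4 or more members, and the 3 highest and 3 lowest of the related list, with other members given by class and for spread over probe sets. The number of arrays limits precision.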

Additional observations from a re-analysis of the deposited data

How the results depend on the processing

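No paired analysis was possible because each group holds 1 array, and none could be left out. In deposited differences, with no centring, 9 members were at least 1.5-fold higher and 0 lower. The class medians there were 0.37 for the 19S particle, 0.27 for the 20S core, 0.31 for MARCH, 0.29 for TRIM, 0.39 for USP, 0.27 for the activating enzymes and 0.25 for the proteasome regulators, each moved by more than the SD over the genes of the class. Leaving out the centring adds the same 0.28 to every gene and class. The classes listed are therefore those with an SD over genes below 0.28, and the others moved as far. The brightest probe set gave 6 higher and 5 lower, where 5.19% of all genes were higher and 7.01% lower. With only probe sets at or above the median level, FBXO8 and HERC2P3 had none left and RNF219 joined at 0.59. Only the genes at or above the median level gave 1 higher and 2 lower (2.15% and 3.79% of all such genes), since FBXO8, UBE2O and HERC2P3 are not among them. At 2-fold 0 members were lower. Quantile normalization, removal of a lowess trend and medians over probe sets counted the same 6 genes. The median over all members ran from 0.01 to 0.34. RNF144B ran from 0.92 to 1.42, FBXO8 from 0.60 to 1.32, RNF213 from -1.10 to -0.58, UBAP2L from -0.82 to -0.50 and UBE2O from -0.92 to -0.34, and none of the members past 1.5-fold changed sign. Each centred setting used its own median gene. Of the 35 named genes, PSMB1, TRIM23 and UBASH3B turned sign with the brightest probe set, and in the other centred settings only TRIM23 (brighter probe sets) and UBASH3B (medians over probe sets) did. Of 258 values of named genes under alternatives, 224 moved by less than the SD over probe sets. For HERC2P3, with 1 probe set, the SD over probe sets pooled over all genes, 0.276, stood in. The 258 values include deposited differences, which shift every gene by the same 0.283. Spread between cultures was not measured.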
